A study of Rattus norvegicus with 10 samples.

Results

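Early needle biopsies of rat mammary tumours were described on their own, as 5 of the 10 samples of the series. The members were the 5 arrays titled as breast tumour biopsies, 1 for each tumour, and the tumours carry the names 31D3, 32D1, 37I1, 50I1 and 52I4. The other 5 samples are total tumours collected later, and nothing was compared with them. All 5 biopsies came from female Sprague-Dawley rats, an outbred strain, whose tumours had been induced with 1 oral dose of 100 mg/kg of the carcinogen 7,12-dimethylbenz(a)anthracene (DMBA). Each biopsy was a Trucut needle core of 0.7 cm by 2.5 mm, taken from rats aged 12 weeks once the tumour measured 2 cm3. The label for treatment reads none, and the tumours had been chosen by the study for a Bloom-Richardson grade of II. No label says whether the 5 tumours grew in different rats, so every SD below is a spread between these samples. A needle core samples a small volume of a tumour, and the labels do not say where in the tumour the core was taken.

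DMBA is activated to DNA-binding metabolites by cytochrome P450 enzymes of the aryl hydrocarbon receptor pathway, and in young female rats it gives rise mainly to mammary adenocarcinomas that depend on ovarian hormones and prolactin. Such tumours hold ducts and acini of luminal and myoepithelial cells in a stroma of fibroblasts, collagen, vessels and leukocytes. Mammary epithelium in them can make milk proteins, whose genes respond to prolactin through the transcription factor STAT5.

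Signals are log2 values of Affymetrix probe sets, so a difference of 1 stands for a factor of 2. They ranged from 2.41 to 14.23, and array medians from 5.99 to 6.11. After the dimmest 40% of probe sets were left out, with a limit at 5.16, 10746 genes were described, each by its brightest probe set. The SD over the 5 biopsies had a median of 0.25 over these genes, with quartiles of 0.16 and 0.42. An SD of at least 1 was found in 464 genes, which is 4.32% of them, and an SD of at least 2 in 30. Between any 2 arrays the Pearson correlation over probe sets, which are no independent replicates, was 0.965 to 0.985. By this measure biopsy 37I1 was least like 50I1 and 32D1. By the median absolute difference over genes, 31D3 and 32D1 were furthest apart, at 0.35. That difference was 0.25 between 37I1 and 50I1 and 0.32 between 37I1 and 32D1. Biopsy 37I1 took the most distant position, 48.80, on the first principal component, which held 46.3% of the variance. As signs of RNA quality, the differences between 3′ and 5′ probe sets lay between 0.09 and 0.19 for GAPDH, 0.70 and 0.87 for beta-actin and 0.87 and 1.27 for hexokinase. In 37I1 they were 0.15, 0.70 and 1.05, of which that of beta-actin was the lowest of the 5. The number of arrays limits the precision. In tissue made of several cell types, fewer cells of a type and less RNA per cell cannot be told apart.

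The label of mammary tumour was checked against defining markers. The luminal epithelial markers Krt8, Krt18, Krt19, Epcam and Cdh1 had mean log2 signals between 11.30 for Cdh1 and 13.15 for Krt19, with SDs between 0.11 for Epcam and 0.57 for Krt8. The basal and myoepithelial markers Krt5, Krt14 and Acta2 had means of 12.22, 12.03 and 11.46, with SDs of 0.22, 0.25 and 0.43. Tp63, the remaining marker of this set, was dimmer, with a mean of 9.83, an SD of 0.57 and its lowest value, 9.19, in 37I1. Both epithelial layers were thus bright in all 5 cores. The defining adipocyte markers Adipoq, Plin1, Cidec and Lep were under the filter limit in every biopsy, with 4.17 as the highest value, for Lep in 37I1. Of 4 epidermal markers, Krt1 and Ivl were under the limit in every biopsy, while Loricrin, with 5.45 to 5.92, and Krt10, with 6.88 to 7.37, were above it in all 5. Esr1, the oestrogen receptor, had 4.79 in 31D3, 4.32 in 32D1, 4.69 in 37I1, 4.98 in 50I1 and 5.38 in 52I4, a mean of 4.83 that left it under the filter. Gapdh and Actb had no probe set tied to a single gene.

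Promoter stretches of 4 genes are shown because they stand for milk protein and mitosis genes, which are described below and have a textbook promoter element each. The element of the milk protein genes is the STAT5 type motif TTCNNNGAA, and that of mitotic genes is the cell cycle homology region TTTGAA. Both were searched on both strands in windows of 300 bases, 250 before and 50 after each gene's start, taken from RefSeq with the build GRCr8. The 250 bases before the start are printed 5′ to 3′ on the gene's strand, with matches in capitals.
Csn2: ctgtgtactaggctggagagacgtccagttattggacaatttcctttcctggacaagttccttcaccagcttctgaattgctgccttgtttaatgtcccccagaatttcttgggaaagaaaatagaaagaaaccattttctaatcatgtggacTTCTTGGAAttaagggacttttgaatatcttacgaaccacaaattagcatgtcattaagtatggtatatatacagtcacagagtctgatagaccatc
Csn1s1: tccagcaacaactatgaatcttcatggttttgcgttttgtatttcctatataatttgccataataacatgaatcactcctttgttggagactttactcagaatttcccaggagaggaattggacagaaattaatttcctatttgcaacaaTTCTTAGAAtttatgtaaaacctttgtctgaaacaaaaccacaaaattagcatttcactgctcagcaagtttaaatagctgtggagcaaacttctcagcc
Cdk1: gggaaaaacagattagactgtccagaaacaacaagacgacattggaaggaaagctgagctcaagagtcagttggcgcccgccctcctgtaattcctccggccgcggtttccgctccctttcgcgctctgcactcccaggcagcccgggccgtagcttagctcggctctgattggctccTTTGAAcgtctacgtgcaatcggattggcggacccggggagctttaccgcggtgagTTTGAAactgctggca
Mki67: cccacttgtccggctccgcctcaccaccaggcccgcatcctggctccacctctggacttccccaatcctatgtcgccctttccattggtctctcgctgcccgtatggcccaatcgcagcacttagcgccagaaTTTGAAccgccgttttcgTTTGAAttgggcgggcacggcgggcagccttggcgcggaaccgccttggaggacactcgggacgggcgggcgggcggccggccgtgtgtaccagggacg

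The stretch of Csn2 is chr14:20601574-20601823 on the plus strand, and that of Csn1s1 is chr14:20638850-20639099 on the minus strand. The stretch of Cdk1 is chr20:19265043-19265292 on the plus strand, and that of Mki67 is chr1:199952594-199952843 on the minus strand. The motif of Csn2 begins 97 bases before the start and that of Csn1s1 100 bases before it. In Cdk1 the 2 matches begin 72 and 16 bases before the start, and in Mki67 117 and 99 bases before it. TTCNNNGAA was present in 3 of the 8 milk protein genes with a window, Csn2, Csn1s1 and Glycam1, which is 37.5%, against 8.87% of all 33469 windows. TTTGAA was present in 19 of 29 mitosis genes with a window, or 65.5%, against 18.3% of all windows. The E-box CANNTG was present in 6 of 8 skeletal muscle genes, 75%, and in 72.1% of all windows, so these letters are common anywhere. A list gene counted if any of its windows held the motif, while the share of all windows counts each window singly. A match describes the letters and says nothing about binding in these tumours, and a gene without a match lacks the letters only in this window.

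The brightest genes belonged to protein synthesis. Of the 20 genes with the highest mean log2 signal, 14 encode cytosolic ribosomal proteins, and of the 50 brightest, 35 do. The mitochondrial COX1, a subunit of cytochrome c oxidase, had the highest mean, 14.08 ± 0.09 (SD, n = 5), and Eef1a1, the elongation factor that brings aminoacyl-tRNA to the ribosome, had 14.08 ± 0.03 (SD, n = 5), so the order of these 2 lies within their spread. COX2, another oxidase subunit, followed with 13.98 ± 0.06 (SD, n = 5). The ribosomal genes Rpl26, Rps29 and Rpl7a had means of 13.95, 13.94 and 13.94. A probe set's brightness depends on its probes as well as on RNA, so this is an order of signals and not of transcript amounts.

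The non-ribosomal genes among the 20 brightest were, besides these, B2m, Actg1 and Apoe. B2m, the light chain of class I antigen presenting molecules, had 13.95 in 31D3, 13.91 in 32D1, 13.65 in 37I1, 13.84 in 50I1 and 13.86 in 52I4. Apoe, the apolipoprotein that macrophages and other cells secrete, had 13.84 in 31D3, 13.54 in 32D1, 13.16 in 37I1, 13.72 in 50I1 and 13.82 in 52I4. Both were lowest in 37I1. Actg1, cytoplasmic gamma actin, was highest in 32D1, at 14.01, and lowest in 31D3, at 13.65.

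The next 15 genes, with ribosomal proteins and elongation factors left out, were mostly epithelial, stromal or immune. Keratin 19 and the adhesion molecule Epcam stood beside the milk protein kappa-casein, Csn3, with means of 13.15, 12.92 and 13.16. Hsp90ab1, the annexin Anxa1 and the calcium-binding S100a6 and S100a11 had means between 13.14 and 13.34. Clca1 and Mgp were 2 bright genes with an SD above 1. Clca1, a secreted protein that regulates calcium-activated chloride channels, had 14.18 in 31D3, 13.92 in 32D1, 10.74 in 37I1, 14.14 in 50I1 and 13.78 in 52I4. Mgp, matrix Gla protein, an inhibitor of calcification, had 13.57 in 31D3, 13.36 in 32D1, 11.25 in 37I1, 13.79 in 50I1 and 13.65 in 52I4. For both, 4 cores lay close together and 37I1 lay more than 2 log2 units lower. Gp2, a secretory granule membrane protein, followed another order, with 13.83 in 31D3, 11.82 in 32D1, 13.60 in 37I1, 12.48 in 50I1 and 13.59 in 52I4, so 32D1 and 50I1 were the lower samples.

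Of the 10 genes with the smallest SD, 5 encode ribosomal proteins or an initiation factor subunit, namely Rpl27a, Rpl18, Rps29, Rpl19 and Eif3f. The others were Oaz1, Nkiras2, Phka1, Blzf1 and Polr1d. Oaz1, the antizyme that regulates polyamine synthesis, had values between 12.69 and 12.72 over the 5 biopsies, an SD of 0.013. Rpl27a had an SD of 0.014, Rpl18 of 0.015 and Eif3f, a subunit of a translation initiation factor, of 0.018. Spread was larger among dim genes: over 4 groups of equal size by mean signal, the median SD was 0.33 in the dimmest, then 0.26 and 0.22, and 0.20 in the brightest. Genes with an SD of at least 1 numbered 183 in the dimmest group and 67 in the brightest.

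**Figure D1:**
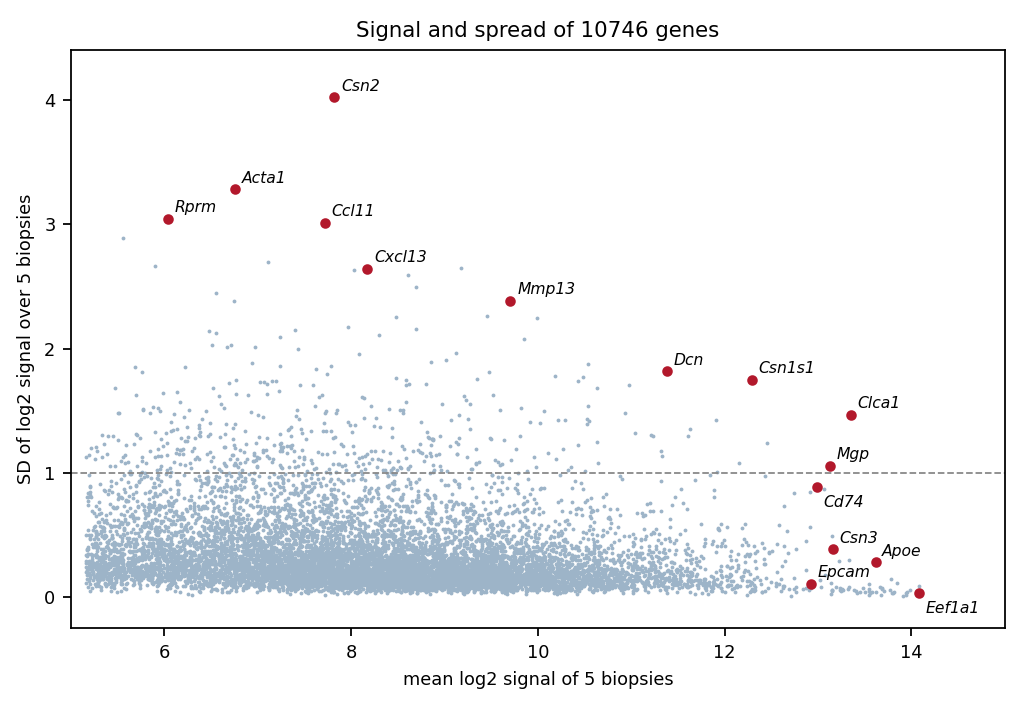
Mean log2 signal (x axis) against the SD over the 5 biopsies (y axis, log2 units) for 10746 genes, 1 point a gene; red points are named genes and the dashed line is an SD of 1. Csn2 stands at the top with an SD of 4.02, and Csn1s1, Clca1 and Mgp are bright genes above the line, while Eef1a1 and Epcam are bright with SDs of 0.03 and 0.11.

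The 25 genes with the largest SD held milk, muscle, matrix, chemokine and protease genes, with SDs from 4.02 to 2.10. Csn2, the milk protein beta-casein, had the largest, with 3.63 in 31D3, 12.46 in 32D1, 11.02 in 37I1, 8.07 in 50I1 and 3.91 in 52I4. Signal was thus high in 32D1 and 37I1, intermediate in 50I1 and under the filter limit in 31D3 and 52I4. Acta1, skeletal muscle actin, had 4.66 in 31D3, 4.91 in 32D1, 11.93 in 37I1, 8.13 in 50I1 and 4.18 in 52I4, an SD of 3.28. It was high in 37I1, intermediate in 50I1 and under the limit in the other 3. Rprm, a mediator of cell cycle arrest, had 9.86 in 31D3, 4.43 in 32D1, 8.66 in 37I1, 4.46 in 50I1 and 2.79 in 52I4. It split the cores into 31D3 and 37I1 on the high side and the rest under the limit. LOC102552398, a non-coding RNA gene, had its high values in the same pair, 12.53 in 31D3 and 11.10 in 37I1, and 5.96 to 8.72 in the rest. Acsm3, a mitochondrial enzyme that activates medium-chain fatty acids, did so too, with 10.38 in 31D3, 10.53 in 37I1 and 5.68 to 7.79 in the rest.

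Chemokines and matrix genes in this set mostly had their lowest signal in 37I1. Ccl11, the eosinophil attractant eotaxin, had 9.42 in 31D3, 5.74 in 32D1, 3.48 in 37I1, 10.77 in 50I1 and 9.17 in 52I4. Cxcl13, the attractant of B cells, had 8.27 in 31D3, 11.69 in 32D1, 4.32 in 37I1, 8.86 in 50I1 and 7.73 in 52I4. Both were under the limit in 37I1, but their highest samples differed, 50I1 for Ccl11 and 32D1 for Cxcl13. Lox, the enzyme that crosslinks collagen, had 9.26 in 31D3, 10.32 in 32D1, 4.18 in 37I1, 10.58 in 50I1 and 8.69 in 52I4. Mfap5, Fndc1, Spon1 and Ogn, all extracellular matrix genes, had the same lone low sample, under the limit in 37I1 in all 4, with 4.92 for Spon1 as the highest, against 6.61 or more elsewhere. Without 37I1 the SD of Lox was 0.89 in place of 2.59, that of Mfap5 0.94 in place of 2.50, that of Fndc1 0.70 in place of 2.25 and that of Spon1 0.49 in place of 2.16. The SD of Ogn was 0.88 without 37I1 and 1.36 without 50I1, in place of 2.13. Leaving out 37I1 gave Msln, a surface protein of mesothelium and some carcinomas, an SD of 0.81 in place of 2.26, Spink5 0.94 in place of 2.38 and Acta1 1.80 in place of 3.28. Tslp, an epithelial cytokine, was lowest in 37I1 as well, at 3.52, and highest in 32D1, at 10.48.

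Other genes of the 25 followed other cores. Mmp13, a collagenase, had 8.79 in 31D3, 11.81 in 32D1, 11.65 in 37I1, 10.24 in 50I1 and 6.05 in 52I4, so 52I4 was the low sample, and without it the SD was 1.41 in place of 2.38. Fgg, the fibrinogen gamma chain, was also low in 52I4, at 3.71 against 7.26 to 8.97 elsewhere, and its SD was 0.82 in place of 2.10 without 52I4. Spink5, a serine protease inhibitor of epithelia, and Ugt2b34l1, a glucuronosyltransferase, were high in 37I1, at 10.75 and 10.31. Cldn11, a tight junction claudin, was high in 31D3 and 52I4, at 9.69 and 7.72, and 3.65 to 4.23 in the rest. Sfrp2, a secreted modulator of Wnt signalling, and Pcp4, a calmodulin-binding peptide, were lowest in 32D1, at 4.28 and 4.33. Csap1 was highest in 37I1, at 13.11, and Aadat, an aminotransferase of tryptophan and lysine breakdown, in 52I4, at 10.21. Igf2, a fetal growth factor, had 5.39 in 31D3, 8.37 in 32D1, 5.19 in 37I1, 9.16 in 50I1 and 4.30 in 52I4. Prss35, a serine protease family member, had its high values in the same pair, 8.94 in 32D1 and 9.39 in 50I1. H19, the imprinted non-coding RNA gene beside Igf2 that was named after its values were seen, had 5.39 in 31D3, 8.82 in 32D1, 5.81 in 37I1, 9.49 in 50I1 and 5.37 in 52I4. Both members of this imprinted pair were thus high in 32D1 and 50I1 and lower in the other 3 cores. The grouping was read from these same values and is no test. Among genes with an SD of at least 1, the largest gap set this pair on the high side in 6.47%, against 2.83% of all genes.

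**Figure D2:**
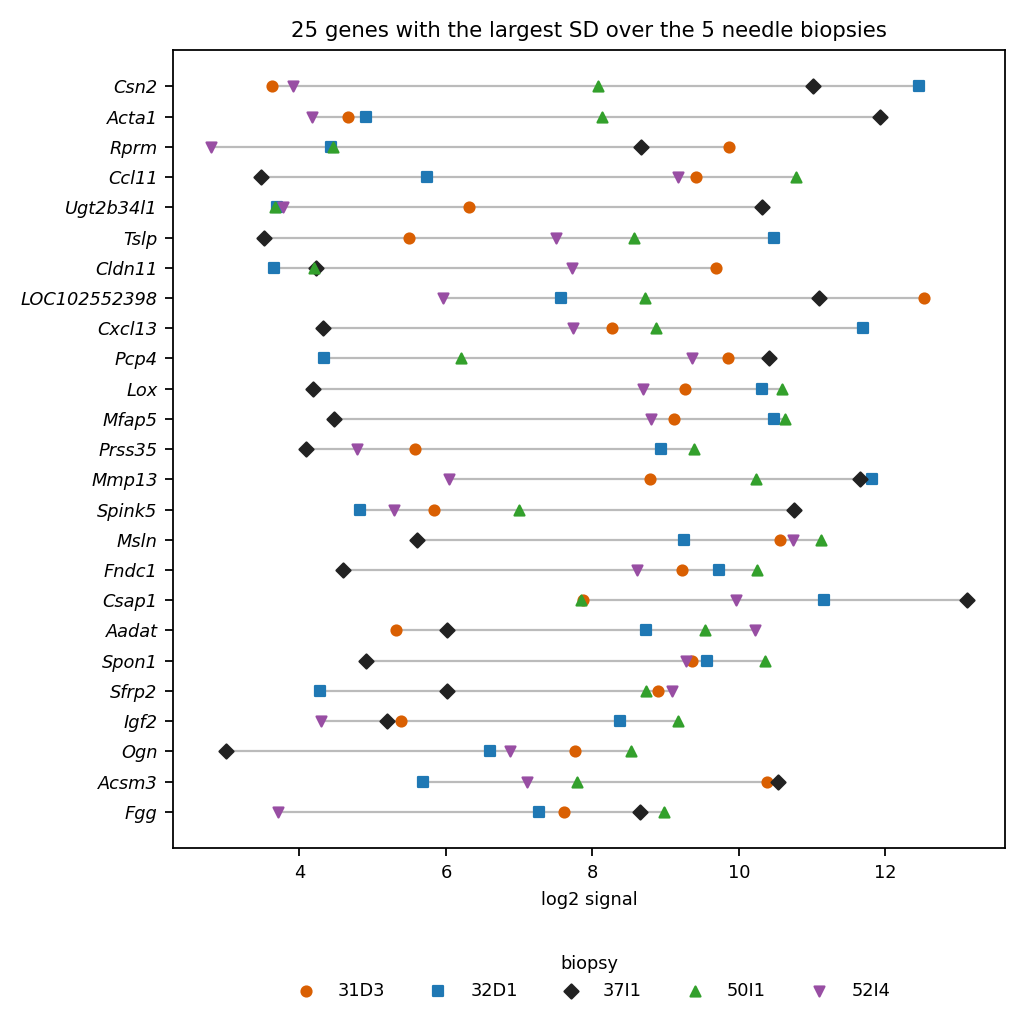
Log2 signal (x axis) of the 25 genes with the largest SD (rows, largest at the top), with 1 symbol for each of the 5 biopsies and a grey line from the lowest to the highest. Csn2 runs from 3.63 to 12.46, Acta1 from 4.18 to 11.93, and the black diamonds of 37I1 lie alone at the left for Lox, Mfap5, Fndc1, Spon1, Ogn and Msln.

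Each gene with an SD of at least 1 was also placed by its largest gap, which divides the 5 cores into a higher and a lower side. Of the 464 genes, 173, or 37.3%, set 37I1 alone on the low side, a split that 10.6% of all 10746 genes had. The next most frequent were 32D1 alone on the high side with 38 genes, 31D3 alone on the low side with 31, and 32D1 with 50I1 on the high side with 30. In 37I1, 85 genes lay at least 2 log2 units below their nearest other biopsy, and 13 lay that far above it. In the other 4 biopsies, 0 to 8 genes lay that far below and 2 to 6 that far above. Without 37I1, 323 genes had an SD of at least 1. The filter uses the mean over the 5 arrays, so genes dim in 1 core pass it more readily than genes bright in 1 core. With no filter, 3731 genes in place of 2237 were highest in 37I1 and 2842 in place of 2511 lowest there. The counts by gap were not recomputed without the filter.

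Of all genes, 23.4% had their lowest signal in 37I1, while 53.2% of those with an SD of at least 1 did. For the lowest signal, the other shares of all genes were 25.4% in 31D3, 27.8% in 32D1, 10.1% in 50I1 and 13.3% in 52I4. For the highest signal they were 17.9% in 31D3, 24% in 32D1, 20.8% in 37I1, 14.9% in 50I1 and 22.4% in 52I4. Among genes with an SD of at least 1, the highest signal lay in 50I1 for 34.7%, in 32D1 for 25.9%, in 52I4 for 14.4%, in 31D3 for 12.9% and in 37I1 for 12.1%. The lowest signal lay in 31D3 for 18.8% and in 32D1 for 13.4% of them. These shares are the background for the counts of list members that follow. When the arrays were centred on their medians, 3343 genes were highest in 37I1 in place of 2237, and 1843 lowest there in place of 2511.

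**Figure D3:**
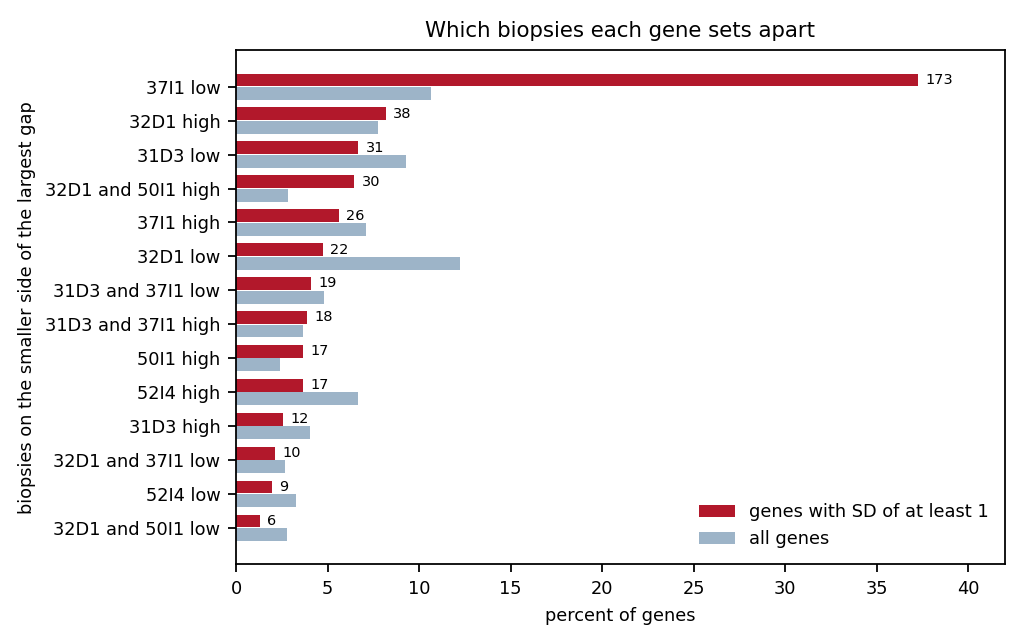
Share of genes (x axis, percent) for which the largest gap between ordered values sets the named biopsies apart on the high or low side (rows), among genes with an SD of at least 1 (red, with the number of genes) and among all genes (blue). The bar for 37I1 alone low reaches 37.3% in red and 10.6% in blue, and no other red bar passes 38 genes.

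Programs were then read from 39 gene lists, of whose 1049 genes 761 were measured. For each list the mean log2 signal of its members was taken on each array. The mean spanned at least 1 between the lowest and the highest biopsy in 16 lists, and under 0.5 in 13. The cytosolic ribosome list spanned 0.14, the respiratory chain 0.20, heat shock 0.25, p53 targets 0.25, luminal epithelium 0.38, proteasome 0.41 and basal and myoepithelium 0.46. The mean of a list is made of its members, so a count of members that share its highest and lowest biopsy describes how evenly they follow it. Where a biopsy was left out below, the filter and the choice of probe set were redone on the remaining arrays. List members could then change.

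**Figure D4:**
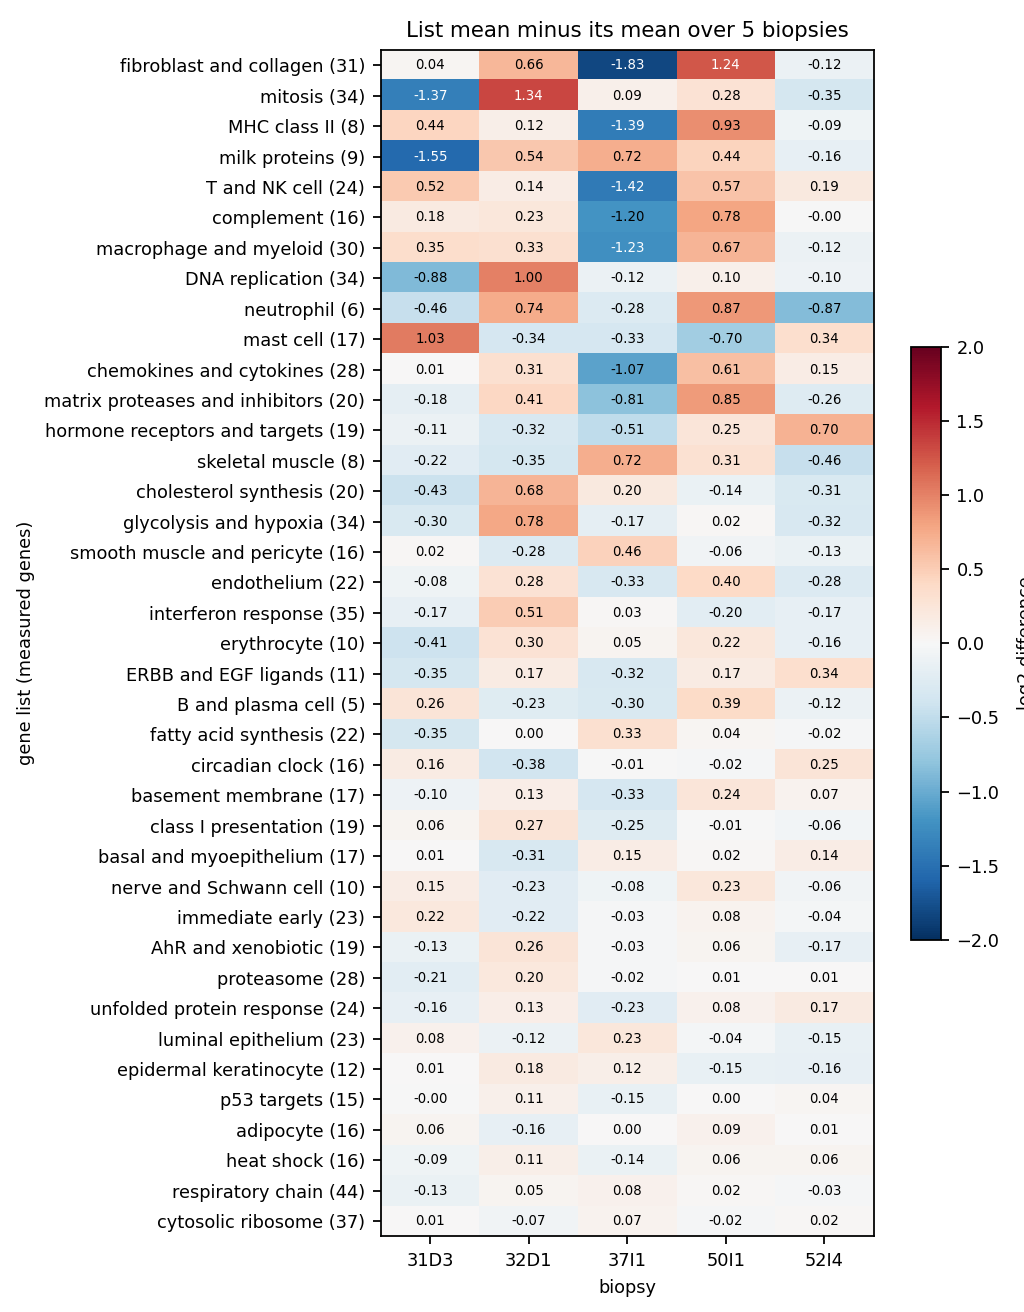
Mean log2 signal of each of 39 gene lists (rows, with the number of measured genes) in each biopsy (columns) minus the list's mean over the 5, in log2 units, ordered by span; red is higher and blue lower. The upper rows hold a blue column for 37I1 (fibroblast, MHC class II, T cell, complement, macrophage) and a separate pattern of red for 32D1 and blue for 31D3 (mitosis, DNA replication), and the lowest rows are near 0.

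The largest program was stroma and leukocytes, highest in 50I1 and lowest in 37I1. It took in 7 lists with 152 genes: fibroblast and collagen, matrix proteases and inhibitors, macrophage and myeloid, MHC class II, T and NK cell, complement, and chemokines and cytokines. Of the 152, 124 had their lowest signal in 37I1, 100 their highest in 50I1 and 95 both, and 63 had an SD of at least 1. Only 5 of these genes stand in more than 1 of the lists.

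The fibroblast and collagen list had means of 9.56 in 31D3, 10.18 in 32D1, 7.70 in 37I1, 10.77 in 50I1 and 9.40 in 52I4. All of its 31 genes were measured, and 29 were lowest in 37I1 and 28 highest in 50I1. Col1a1, the main chain of type I collagen, had 11.03 in 31D3, 11.97 in 32D1, 8.92 in 37I1, 12.65 in 50I1 and 10.09 in 52I4. Dcn, the collagen-binding proteoglycan decorin, had 12.04 in 31D3, 11.94 in 32D1, 8.21 in 37I1, 12.86 in 50I1 and 11.85 in 52I4. For both, 37I1 lay more than 1 log2 unit below the nearest other core and 50I1 was the highest. Pdgfra, the platelet-derived growth factor receptor of fibroblasts, had 8.76 in 31D3, 9.26 in 32D1, 5.47 in 37I1, 10.08 in 50I1 and 8.85 in 52I4. Fn1, fibronectin, ran from 7.60 in 37I1 to 11.98 in 50I1, and Postn, periostin, from 10.35 to 13.21 in the same 2 cores. The exceptions at the low end were Col6a3, lowest in 31D3, and Col5a1, lowest in 52I4. Without 37I1 the list spanned 1.37 in place of 3.07.

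The macrophage, MHC class II and T and NK cell lists had the same ends. The macrophage and myeloid means were 9.72 in 31D3, 9.70 in 32D1, 8.14 in 37I1, 10.05 in 50I1 and 9.26 in 52I4, with 26 of 30 genes lowest in 37I1 and 22 highest in 50I1. Cd68, a lysosomal protein of macrophages, had 9.82 in 31D3, 9.38 in 32D1, 8.11 in 37I1, 9.84 in 50I1 and 9.01 in 52I4, and its SD was 0.40 without 37I1 in place of 0.72. Cd163 and Mrc1, scavenger receptors of tissue macrophages, had 3.93 and 7.26 in 37I1 and 8.30 and 10.52 in 50I1. Cd14, a co-receptor for bacterial lipopolysaccharide, differed from the list, with its highest value, 11.56, in 37I1 and its lowest, 10.34, in 31D3.

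All 8 measured MHC class II genes were highest in 50I1 and lowest in 37I1. Ciita, the transactivator that switches these genes on, had 7.71 in 31D3, 7.13 in 32D1, 5.15 in 37I1, 8.75 in 50I1 and 7.43 in 52I4. Cd74, the invariant chain, had 13.52 in 31D3, 13.06 in 32D1, 11.47 in 37I1, 13.72 in 50I1 and 13.15 in 52I4. RT1 genes are close copies of each other, so single RT1 probe sets are uncertain in what they measure.

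T and NK cell genes were low in 37I1 alone. The list means were 7.74 in 31D3, 7.37 in 32D1, 5.80 in 37I1, 7.79 in 50I1 and 7.41 in 52I4, and 22 of 24 genes were lowest in 37I1 while 17 were highest in 50I1. Cd3e, a chain of the T cell receptor complex, had 9.01 in 31D3, 8.59 in 32D1, 5.85 in 37I1, 9.26 in 50I1 and 8.53 in 52I4. Cd3g, Cd3d and Cd5 had 5.31, 4.96 and 4.19 in 37I1 and 6.81 or more in each other core. The kinase Lck, which starts T cell receptor signalling, was brighter, at 7.07 in 37I1 and 8.87 to 9.35 elsewhere. Gata3 and Klrk1 were the members not lowest in 37I1, and Gata3 is also a gene of luminal mammary epithelium. Ptprc, the pan-leukocyte antigen CD45, had 9.70 in 31D3, 9.53 in 32D1, 7.48 in 37I1, 9.39 in 50I1 and 8.92 in 52I4. The highest core was 31D3, and 37I1 was again apart. Without 37I1 the SD was 0.34 in place of 1.37 for Cd3e and 0.33 in place of 0.90 for Ptprc.

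Chemokines, complement and proteases were less even. Of 28 chemokine and cytokine genes 18 were lowest in 37I1 and 11 highest in 50I1, of 16 complement genes 13 and 9, and of 20 proteases and inhibitors 13 and 9. Ccl17, Ccl24 and Ccl21 had 4.62, 4.45 and 3.90 in 37I1 and 9.41, 9.25 and 7.92 in 50I1. Il33, an alarmin cytokine, was instead highest in 32D1, at 11.70, and lowest in 31D3, at 8.87, and Il18 was highest in 52I4, at 12.73. C1s and Serping1, a protease and an inhibitor of the classical complement pathway, had 7.34 and 7.81 in 37I1 and 11.51 and 11.30 in 50I1. Mmp9, a gelatinase, was high in 50I1 only, with 4.82 in 31D3, 5.77 in 32D1, 4.50 in 37I1, 8.25 in 50I1 and 4.02 in 52I4. Without 37I1 the spans of the lists were 0.79 in place of 1.90 for macrophages, 0.95 in place of 2.32 for MHC class II, 0.43 in place of 1.99 for T and NK cells, 0.78 in place of 1.98 for complement and 0.60 in place of 1.68 for chemokines. The list of proteases and inhibitors kept a span of 1.11 in place of 1.66. On the same genes and probe sets the MHC class II list spanned 1.02 without 37I1.

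The epithelial lists were not lowest in 37I1. Their means were 10.50 in 31D3, 10.30 in 32D1, 10.64 in 37I1, 10.38 in 50I1 and 10.27 in 52I4 for luminal genes, and 10.80 in 31D3, 10.48 in 32D1, 10.94 in 37I1, 10.81 in 50I1 and 10.94 in 52I4 for basal and myoepithelial genes. With the genes left out that another list also holds, the luminal list was still highest in 37I1, but the basal list was highest in 50I1 and lowest in 37I1, over a span of 0.59. Krt14 was lowest in 37I1, at 11.60, and had an SD of 0.09 in place of 0.25 without it. The share of cells of each type was not measured, and its part in these differences was not tested.

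Some contractile genes were high in 37I1. Of 16 measured smooth muscle and pericyte genes, 11 were highest in 37I1. Actg2, enteric smooth muscle actin, had 8.82 in 31D3, 9.33 in 32D1, 12.26 in 37I1, 8.74 in 50I1 and 8.81 in 52I4. Myh11, smooth muscle myosin, had 10.71 in 31D3, 9.58 in 32D1, 11.87 in 37I1, 9.67 in 50I1 and 10.18 in 52I4. Actg2, Myh11, Cnn1 and Mylk are also expressed by myoepithelial cells, and without the genes that other lists hold the smooth muscle list was highest in 50I1, over a span of 0.35 in place of 0.74. The skeletal muscle list spanned 1.18, from 7.20 in 52I4 to 8.38 in 37I1, on 8 measured genes of 34. Of these, only Acta1 had an SD of at least 1. The defining muscle genes Ckm, Myh4 and Tnnt3 were under the filter limit in all 5 biopsies, with the highest value, 4.99, for Tnnt3 in 50I1. The median of the skeletal muscle members spanned 0.72 and was highest in 50I1, at 7.14, with 6.63 in 37I1. Without 37I1 the mean spanned 0.77.

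A separate program of cell division was highest in 32D1 and lowest in 31D3. The mitosis list had means of 6.35 in 31D3, 9.05 in 32D1, 7.81 in 37I1 and 7.37 in 52I4, and 50I1 lay between 37I1 and 32D1, with 33 of 34 genes highest in 32D1 and 33 lowest in 31D3. Mki67, the Ki-67 antigen of dividing cells whose promoter stands above, had 7.20 in 31D3, 10.35 in 32D1, 8.96 in 37I1, 9.16 in 50I1 and 8.60 in 52I4. Cdk1, the kinase that drives entry into mitosis and the other mitotic promoter shown, had 7.31 in 31D3, 10.49 in 32D1, 9.09 in 37I1, 9.26 in 50I1 and 8.54 in 52I4. Ttk, a kinase of the spindle checkpoint, had the largest SD of the list, 1.23, with 4.92 in 31D3, 8.32 in 32D1, 6.91 in 37I1, 7.07 in 50I1 and 6.51 in 52I4. The order of the cores was the same in the 3 genes: 32D1, 50I1, 37I1, 52I4 and 31D3. The lone exception at both ends was Kif2c, a kinesin, with 7.48 in 52I4 and 8.31 to 8.41 in the other cores.

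DNA replication genes followed. Of 34, all were highest in 32D1 and 33 lowest in 31D3, with list means of 6.71 in 31D3, 8.59 in 32D1, 7.47 in 37I1, 7.69 in 50I1 and 7.49 in 52I4. Ccne1, the cyclin E that starts S phase, had 4.80 in 31D3, 8.06 in 32D1, 6.03 in 37I1, 6.75 in 50I1 and 5.94 in 52I4. Mcm6, a subunit of the replicative helicase, had 7.31 in 31D3, 9.79 in 32D1, 8.01 in 37I1, 8.70 in 50I1 and 8.37 in 52I4. Both had 32D1 and 50I1 as their 2 highest cores. Pcna, the sliding clamp of DNA polymerase, was bright throughout, from 10.51 in 31D3 to 12.02 in 32D1. Cholesterol synthesis genes shared these ends less evenly, with 16 of 20 highest in 32D1 and 12 lowest in 31D3. Idi1, an isomerase of the mevalonate pathway, had 8.35 in 31D3, 10.69 in 32D1, 9.53 in 37I1, 8.93 in 50I1 and 8.99 in 52I4. Over the 3 lists, 83 of 88 genes were highest in 32D1, 78 lowest in 31D3 and 76 both.

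The RNA quality measures differed between the same cores. The 3′ minus 5′ difference was 0.19 for GAPDH, 0.87 for beta-actin and 1.19 for hexokinase in 31D3, the largest of the 5 for the first 2 controls. It was 0.09, 0.73 and 0.87 in 32D1, the smallest for GAPDH and hexokinase. Their part in the program was not tested. The spans of the mitosis and DNA replication lists rest on both ends. Without 31D3 the mitosis list spanned 1.69 and without 32D1 1.65, in place of 2.70. The DNA replication list spanned 1.14 without 31D3, or 1.12 on the same genes and probe sets, and 0.98 without 32D1, in place of 1.88. The cholesterol list rested more on 32D1, with 0.98 without 31D3 and 0.63 without 32D1, in place of 1.11.

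Glycolysis and hypoxia genes were also highest in 32D1, but their lowest core varied. Of 34 genes, 30 were highest in 32D1 and 13 lowest in 52I4. Car9, the hypoxia-induced carbonic anhydrase, had 5.29 in 31D3, 8.40 in 32D1, 6.17 in 37I1, 6.21 in 50I1 and 5.19 in 52I4. Slc2a1, the glucose transporter GLUT1, had 9.96 in 31D3, 11.71 in 32D1, 10.77 in 37I1, 10.26 in 50I1 and 9.81 in 52I4. Without 32D1 the list spanned 0.34 in place of 1.10. The GAPDH control, which belongs to glycolysis, was highest in the same core, with a 3′ signal of 13.45 in 32D1 and 12.42 to 12.81 elsewhere. Proteasome genes had a span of only 0.41, with 25 of 28 highest in 32D1 and 24 lowest in 31D3, the ends of the cell division lists. Interferon response genes were highest in 32D1 in 23 of 35, with Isg15, a ubiquitin-like modifier, at 8.47 in 31D3, 11.46 in 32D1, 10.43 in 37I1, 8.88 in 50I1 and 8.95 in 52I4.

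Mast cell genes formed a program of their own and were highest in 31D3. All 17 measured members had their highest signal there, and 12 had their lowest in 50I1. The list means were 10.10 in 31D3, 8.73 in 32D1, 8.74 in 37I1, 8.37 in 50I1 and 9.41 in 52I4. Cpa3, a carboxypeptidase of mast cell granules, had 12.49 in 31D3, 11.08 in 32D1, 11.43 in 37I1, 10.49 in 50I1 and 11.71 in 52I4. Ms4a2, a chain of the high-affinity IgE receptor, had 9.38 in 31D3, 6.85 in 32D1, 7.69 in 37I1, 6.59 in 50I1 and 8.56 in 52I4. In both, 31D3 and 52I4 were the 2 highest cores and 50I1 the lowest. Tpsab1, a tryptase, differed in that 4 cores lay between 10.41 and 10.94 and 50I1 alone lay lower, at 9.26, without which its SD was 0.22 in place of 0.67. Mcpt1, Mcpt8 and Mcpt9 were instead lowest in 37I1, where Mcpt1 had 9.17 against 11.25 or more elsewhere. Mast cell proteases are close copies of each other, so their single probe sets are uncertain. Without 31D3 the list spanned 1.03 in place of 1.73.

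**Figure D5:**
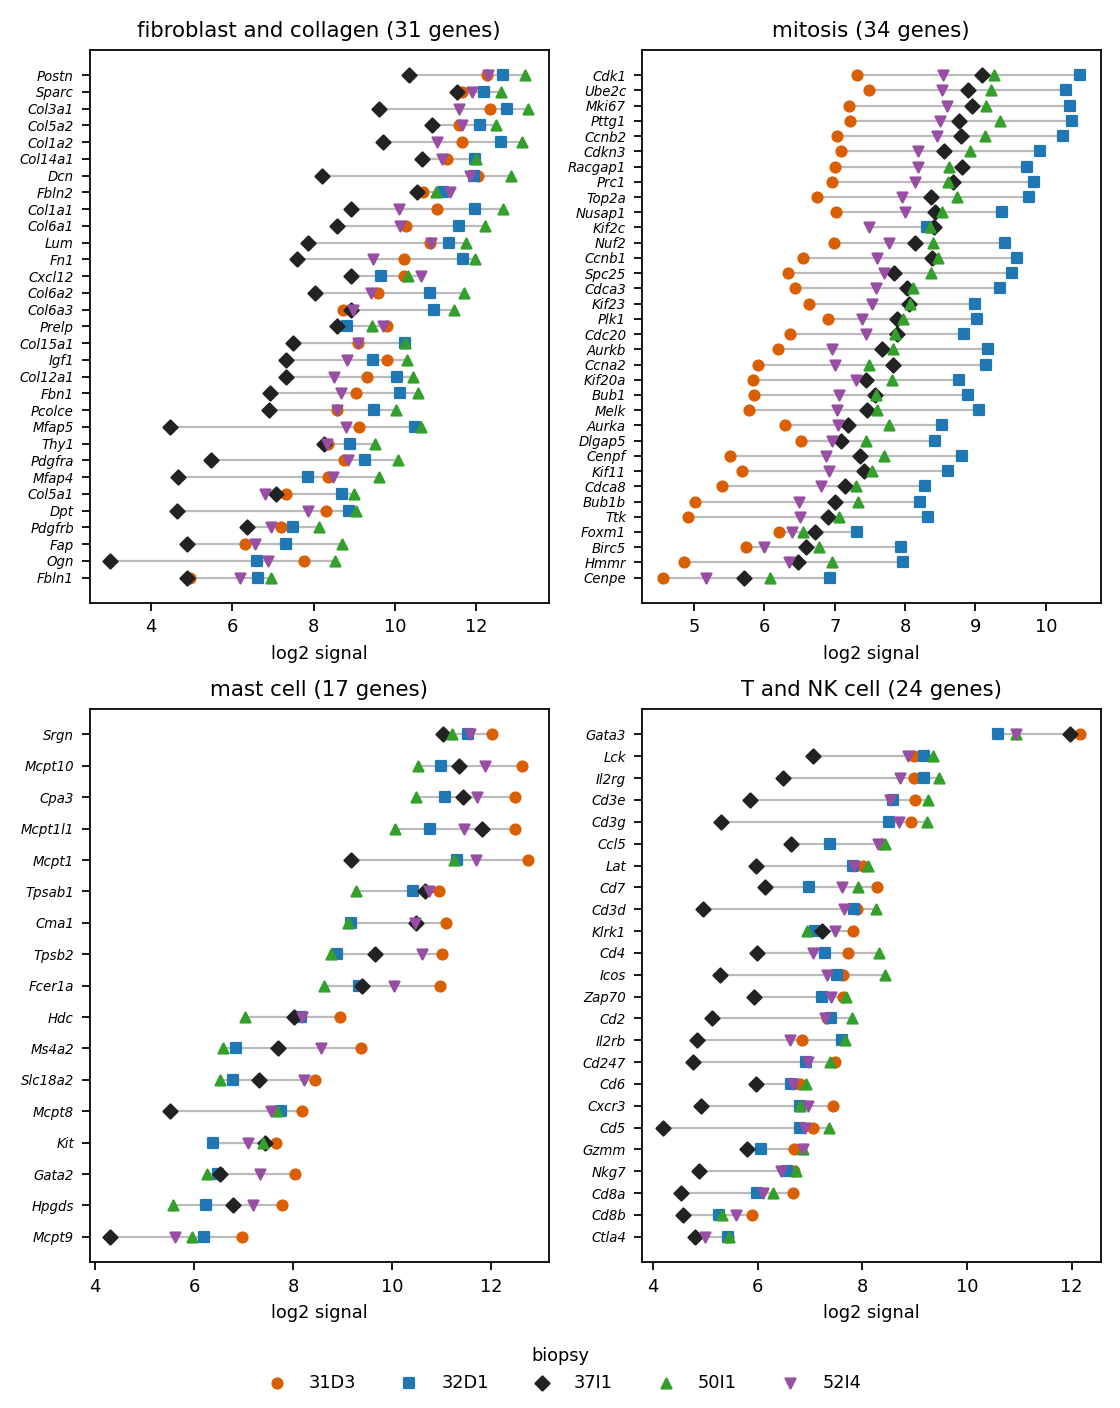
Log2 signal (x axis) of every measured gene (rows, brightest at the top) of 4 lists in each of the 5 biopsies, with 1 symbol a biopsy and a grey line from lowest to highest. In the fibroblast and T cell panels the black diamonds of 37I1 stand at the left for 29 of 31 and 22 of 24 genes, in the mitosis panel 31D3 and 32D1 form the ends for 33 of 34 genes, and in the mast cell panel 31D3 is the rightmost in all 17.

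Milk protein genes did not follow the cell type programs, and they did not follow each other closely. The list means were 8.24 in 31D3, 10.33 in 32D1, 10.52 in 37I1, 10.23 in 50I1 and 9.63 in 52I4, with 6 of 9 genes lowest in 31D3, 4 highest in 37I1 and 3 both. Without Olah, which another list holds, the mean was highest in 32D1 and lowest in 31D3 over a span of 2.48, and the median of members was highest in 50I1, so the high end depends on the summary. Csn1s1, alpha-casein, whose promoter stands above with that of Csn2, had 9.36 in 31D3, 12.94 in 32D1, 13.82 in 37I1, 13.20 in 50I1 and 12.15 in 52I4. Wap, whey acidic protein, had 5.50 in 31D3, 9.19 in 32D1, 8.88 in 37I1, 7.80 in 50I1 and 6.71 in 52I4. Both had 31D3 as the lowest and 52I4 as the next lowest core, as Csn2 did. Csn3 and Lalba, the lactose synthase subunit alpha-lactalbumin, were bright in all cores, from 12.66 to 13.74 and from 11.52 to 13.49, and were also lowest in 31D3 and highest in 37I1. Glycam1, the third milk gene whose window holds the motif, differed, with 5.24 in 31D3, 8.04 in 32D1, 5.40 in 37I1, 8.96 in 50I1 and 9.51 in 52I4. Without 31D3 the list spanned 0.88 in place of 2.27.

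Hormone receptors and their targets were highest in 52I4 in 11 of 19 genes, and 4 of the 19 had an SD of at least 1. Greb1, an oestrogen-induced gene, had 5.23 in 31D3, 4.53 in 32D1, 3.68 in 37I1, 6.59 in 50I1 and 8.40 in 52I4. Fkbp5, a glucocorticoid and progestin target, had 7.57 in 31D3, 7.88 in 32D1, 6.09 in 37I1, 8.93 in 50I1 and 9.73 in 52I4. Stat5a, which carries the prolactin signal to milk genes, had 9.32 in 31D3, 8.59 in 32D1, 9.47 in 37I1, 9.26 in 50I1 and 11.43 in 52I4. In Stat5a only 52I4 stood apart, while in Greb1 and Fkbp5 50I1 was the second highest. Pgr, the progesterone receptor, had 8.43 in 31D3, 7.44 in 32D1, 8.76 in 37I1, 7.92 in 50I1 and 9.11 in 52I4. It was thus highest in 52I4 as well, and so was Esr1, at 5.38, though under the filter. Prlr, the prolactin receptor, was instead highest in 31D3, with 13.42 in 31D3, 11.94 in 32D1, 12.85 in 37I1, 12.57 in 50I1 and 12.57 in 52I4. Erbb2, the receptor tyrosine kinase HER2, had 9.22 in 31D3, 8.18 in 32D1, 9.38 in 37I1, 8.82 in 50I1 and 8.88 in 52I4, and both Prlr and Erbb2 were lowest in 32D1. Without 32D1 the SD of Erbb2 was 0.27 in place of 0.46. Without 52I4 the list spanned 0.64 in place of 1.21, or 0.76 on the same 19 genes and probe sets.

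Of 19 neutrophil genes 6 were measured, and the receptor Csf3r was under the filter limit. The list means were 6.71 in 31D3, 7.91 in 32D1, 6.89 in 37I1, 8.03 in 50I1 and 6.30 in 52I4, a span of 1.74, with 3 genes highest in 50I1 and 3 lowest in 52I4. With no filter the span was 0.98, and by the median of members 2.70. The genes highest in 50I1 were Mmp9, Il1b and Il1r2. S100a9 had 5.42 in 31D3, 8.03 in 32D1, 6.63 in 37I1, 7.15 in 50I1 and 4.61 in 52I4, and S100a8, its partner in calprotectin, was highest in 32D1 and lowest in 52I4 as well. Hbb, the haemoglobin beta chain and a measure of blood in the core, had 10.74 in 31D3, 11.80 in 32D1, 12.73 in 37I1, 12.58 in 50I1 and 11.56 in 52I4 and was thus highest in 37I1 and lowest in 31D3. Alas2, of haem synthesis in red cells, had the same ends, at 7.26 and 5.43. The erythrocyte list of 10 measured genes was instead highest in 32D1, at 8.09, with 7.84 in 37I1 and 7.38 in 31D3, and it held Car2 and Tfrc, which other cells express too and which were highest in 32D1. Pecam1, an endothelial adhesion molecule, ran from 6.66 in 52I4 to 7.78 in 50I1. The endothelial list had the ends of the stroma and leukocyte program over a smaller span, 0.73. Of its 22 measured genes 15 were highest in 50I1 and 9 lowest in 37I1. The basement membrane and the B and plasma cell lists had these ends too, over 0.58 and 0.69, the last with 1 of 5 genes following at each end. Jchain, the joining chain of secreted antibodies, was high in 50I1, at 9.42 against 5.12 to 7.09 elsewhere.

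Single genes also set each core apart. In 31D3, Abcc8, the sulphonylurea receptor subunit of a potassium channel, had 8.55 against 4.41 to 5.22 elsewhere, and Vtcn1, an inhibitory ligand of T cells, 8.81 against 6.60 to 7.02. In 32D1, Abca1, which exports cholesterol from cells, had 5.69 against 9.37 to 10.52 elsewhere, with its 4 probe sets all lowest there, and Agtr1a, an angiotensin receptor, 8.72 against 11.32 or more. Esrrb, an orphan nuclear receptor, had 7.92 in 32D1 and 5.36 to 5.44 elsewhere. In 52I4, Hpgd, which degrades prostaglandins, had 11.69 against 7.55 to 9.69 elsewhere, and Slc39a2, a zinc transporter, 10.09 against 5.85 to 7.30. In 50I1 the largest gaps belonged above to Mmp9 and Jchain, given before, and below to Hoxb3, at 5.86 against 7.03 or more.

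Lists that spanned under 1 still held single genes with a wide spread. Lyve1, a hyaluronan receptor of lymphatic vessels, had 7.76 in 31D3, 8.92 in 32D1, 5.65 in 37I1, 9.20 in 50I1 and 8.31 in 52I4, while the endothelial list spanned 0.73. Cyp1b1, a cytochrome P450 that activates DMBA, had 8.92 in 31D3, 10.33 in 32D1, 6.88 in 37I1, 8.76 in 50I1 and 9.47 in 52I4, in a list of aryl hydrocarbon receptor and xenobiotic genes that spanned 0.43. Both genes were lowest in 37I1. Fosb, an immediate early transcription factor, had 8.38 in 31D3, 4.58 in 32D1, 6.76 in 37I1, 6.29 in 50I1 and 5.85 in 52I4. Npas2, a clock transcription factor, had 7.81 in 31D3, 5.24 in 32D1, 8.19 in 37I1, 5.57 in 50I1 and 6.45 in 52I4. These 2 were lowest in 32D1 and had 31D3 and 37I1 as their highest cores. Areg, the EGF receptor ligand amphiregulin, had 10.64 in 31D3, 12.50 in 32D1, 11.01 in 37I1, 12.78 in 50I1 and 12.64 in 52I4, and so was lower in 31D3 and 37I1. Thrsp, a regulator of lipogenesis in mammary gland and fat, had 8.06 in 31D3, 7.21 in 32D1, 10.44 in 37I1, 9.64 in 50I1 and 8.95 in 52I4. Scd, the stearoyl-CoA desaturase, was instead highest in 52I4, at 10.67, and lowest in 50I1, at 8.06.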

How the data were processed

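RNA of 5 needle biopsies was measured on Affymetrix rat genome arrays, 1 a biopsy. The authors deposited log2 signals that had been normalized by RMA, per the submitters' processing notes. Neither the RMA version nor the chip definition is given in the sources used here. RMA gives arrays 1 distribution, so a shift shared by most transcripts is removed. That the scale is log2 was judged from the range of the values. The 5 columns of other samples were not used. From 31099 probe sets 57 controls were dropped. Among the remaining 31042, the platform annotation ties 20826 to 1 gene, 436 to several and 9780 to none. Symbols were updated by identifier through a RefSeq table (GRCr8) for 20758. The dimmest 40% by mean were left out, and each gene took its brightest probe set; 2960 genes had several.

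The members, the 39 gene lists and the alternatives were chosen with earlier results of these data known. With 1 group there was no contrast and no test of a difference: values are means, SDs, ranks and counts. Dixon's limit served only to flag values for a closer look. Named genes were the 20 brightest and next 15, the 25 largest and 10 smallest SDs, the 5 largest gaps above and below for each biopsy, up to 4 by SD and 2 by mean from each list, and 25 fixed markers. Others named, such as H19 and list members given as exceptions, were chosen after their values were seen. Steps were tested on simulated data and run in Python 3.11.15 with pandas 2.3.3, NumPy 2.4.6 and matplotlib 3.10.9. Alternatives were other filters, centring, quantile normalization, other choices of probe set, other measures of spread, medians of lists and leaving out each biopsy. Leaving out a biopsy redid the filter and the choice of probe set on the remaining arrays.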

Additional observations from a re-analysis of the deposited data

Results flagged for a closer look

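In a group of 5, a sample whose gap to its nearest neighbour takes more than 0.71 of the whole range stands apart by Dixon's 95% critical value, which chance gives in about 1 of 20 groups. Over all 10746 genes, 660, or 6.14%, passed this limit at 1 end. Of the 39 list means, 1 passed, that of T and NK cells, where 37I1 lay below the other biopsies with a ratio of 0.786. A count of 1 in 39 is not above the 1 in 20 that chance gives. Of the 150 measured genes named in the text, 23 passed, 15 of them with 37I1 below. Many were named for a large spread or a large gap, so their number is no measure against the share over all genes.

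Biopsy 37I1 lay below the rest for the T cell genes Cd3e, Cd3d, Cd3g, Cd5 and Lck, with ratios of 0.788, 0.812, 0.812, 0.823 and 0.791. It did so for the stromal genes Dcn, Pdgfra, Spon1 and Mgp, with ratios of 0.782, 0.713, 0.802 and 0.832, and for the complement genes C1s and Serping1, with 0.877 and 0.773. The chemokine Ccl21 had 0.752, the invariant chain Cd74 0.711, the mast cell protease Mcpt8 0.765 and the secreted Clca1 0.883. The same biopsy lay above the rest for Actg2, smooth muscle actin, with 0.832, and for Rpl27a, with 0.737, although the SD of Rpl27a was among the 10 smallest. Biopsy 32D1 lay below for Abca1 and Agtr1a, with 0.761 and 0.807, and above for Esrrb, with 0.967. Biopsy 31D3 lay above for Abcc8 and Vtcn1, with 0.803 and 0.812. Biopsy 52I4 lay below for Kif2c, with 0.897.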

How the results depend on the processing

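No paired analysis was possible because the 5 biopsies form 1 group and no comparison was tested. Of 382 values recomputed under alternatives, 354 stayed within 1.5 times the reported count or within the replicate SD of the reported value. For a list span that SD is taken over the list means of the 5 biopsies, which is a wide limit. With no filter the neutrophil span of 0.98 in place of 1.74 and the skeletal muscle span of 0.78 in place of 1.18 counted as staying. With the dimmest 60% left out, 294 genes had an SD of at least 1 and 942 were lowest in 52I4. With no filter, 3731 genes were highest in 37I1, 1967 lowest in 50I1 and 2693 lowest in 52I4. By the median absolute deviation 11 of the 25 genes with the largest SD were shared. Taken as the median of members, the neutrophil list spanned 2.70 and the complement list 3.21. Leaving out 1 biopsy at a time gave 1907 to 2633 genes highest in 50I1, 1298 to 2385 lowest in 50I1, 14 to 21 of the 25 genes shared and 10 to 15 lists that spanned at least 1. In all 4 counts leaving out 37I1 or 32D1 gave an extreme. The counts for 50I1 rise by construction here, since genes with their end in the omitted biopsy pass to the remaining ones. List spans then ran from 0.88 to 2.27 for milk proteins, 1.37 to 3.07 for fibroblast and collagen, 0.79 to 1.90 for macrophage and myeloid, 0.95 to 2.32 for MHC class II, 0.43 to 1.99 for T and NK cell, 1.03 to 1.73 for mast cell and 0.78 to 1.98 for complement. They ran from 0.60 to 1.68 for chemokines, 1.65 to 2.70 for mitosis, 0.98 to 1.89 for DNA replication, 0.34 to 1.10 for glycolysis, 0.63 to 1.11 for cholesterol synthesis and 0.64 to 1.31 for hormone targets. With the dimmest 60% left out, the skeletal muscle and neutrophil lists, and without 50I1 the neutrophil list, held under 5 genes and gave no value. Leaving out genes of several lists was chosen after seeing the data. The cause of the other shifts was not tested. SDs were followed for 44 genes, those with the largest SDs and the markers. Of 217 such SDs without 1 biopsy 17 shrank by over 1.5 times, 12 of them without 37I1, and of 300 under other settings 0 moved that far.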

Other observations

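Some genes outside the lists were set apart with the same cores, and they were chosen after their values were seen. Kcnj11, the pore subunit that pairs with Abcc8 in a potassium channel, was highest in 31D3 too, with 7.98 in 31D3, 5.61 in 32D1, 5.14 in 37I1, 6.71 in 50I1 and 5.56 in 52I4. Tnc, the matrix protein tenascin C, had 7.99 in 31D3, 10.88 in 32D1, 6.82 in 37I1, 11.17 in 50I1 and 8.23 in 52I4, so it was high in the cores in which Igf2 and H19 were high. Probe sets without a single gene were left out of all counts above. Of 3921 of them past the filter, 128 had an SD of at least 1.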
